A study of Mus musculus with 27 samples.

Results

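The liver transcriptome 48 h after 70% partial hepatectomy was compared with that at 24 h, in wild-type C57/BL6J mice that received no etomoxir. The libraries were chosen by their titles, 7 at 48 h (PHx48) and 7 at 24 h (PHx24), which makes 14 of the 27 liver libraries of the series. The other 13 libraries came from mice of the same strain and genotype. They were 48 h after resection with etomoxir (PHx48_ETO, n = 4), 24 h after resection with etomoxir (PHx24_ETO, n = 4) and sham operation with no time in their labels (n = 5). Etomoxir blocks carnitine palmitoyltransferase 1 and so the entry of long-chain fatty acids into mitochondria. The dose was 12.5 mg/kg into the peritoneal cavity, given 4 h ahead of surgery and repeated at 24 h in the PHx48_ETO mice. The sources do not say whether PHx48 and PHx24 mice received a vehicle, nor whether each library stands for a separate animal. The p-values therefore rest on the spread between libraries, which may be technical. Levels are the authors' FPKM (fragments per kilobase of gene length, scaled in the deposited values to the typical gene rather than to the library total). Of 54532 genes, 12376 reached 1 FPKM in 4 or more libraries and were tested on the raw counts with edgeR's quasi-likelihood test, in 1 fit of all 27 libraries. A gene is said to have risen or fallen where its Benjamini-Hochberg adjusted p over all tested genes was under 0.05.

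Removal of liver lobes drives the remaining hepatocytes, which seldom divide, back into the cell cycle. DNA is copied in S phase by the MCM helicase and its partners, and mitosis follows under cyclin B and CDK1, the kinase PLK1 and the anaphase-promoting complex. The same tissue mounts an acute-phase response to interleukin 6, stores and makes lipid, and keeps up its secretory and metabolic work while it regrows. Promoters of many mitotic genes carry a cell cycle homology region, a short TTTGAA element bound by the MuvB core of the DREAM and B-MYB complexes, often beside CCAAT boxes bound by NF-Y. Promoters of replication genes more often carry E2F sites.

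Promoter windows from 250 bases before to 50 after the start of each gene were taken from RefSeq (GRCm38.p6) for both kinds of gene, because mitosis genes rose between the times and replication genes gave no call. They are written 5′ to 3′ on the gene's strand, with the element TTTGAA, the box CCAAT and the E2F strings in capitals, on either strand. The E2F strings searched were TTTGGCGC, TTTCGCGC, TTTCCCGC and TTTGCCGC. The first 6 belong to mitosis genes that rose in PHx48, the last 3 to replication genes that did not pass the test. Ccnb1, which holds no TTTGAA, Cdk1, which holds an E2F string, and Mcm2, which holds TTTGAA, depart from the commoner pattern. The window of Ccne1 was planned for display on the replication side, held none of these strings and is not shown.
Ccnb2 (chr9:70421505-70421804, minus strand): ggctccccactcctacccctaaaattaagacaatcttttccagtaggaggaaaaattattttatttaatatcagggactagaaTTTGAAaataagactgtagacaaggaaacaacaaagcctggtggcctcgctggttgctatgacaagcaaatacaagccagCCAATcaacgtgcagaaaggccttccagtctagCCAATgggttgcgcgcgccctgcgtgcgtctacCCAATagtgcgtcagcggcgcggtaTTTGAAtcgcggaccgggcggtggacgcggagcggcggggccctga
Plk1 (chr7:122159185-122159484, plus strand): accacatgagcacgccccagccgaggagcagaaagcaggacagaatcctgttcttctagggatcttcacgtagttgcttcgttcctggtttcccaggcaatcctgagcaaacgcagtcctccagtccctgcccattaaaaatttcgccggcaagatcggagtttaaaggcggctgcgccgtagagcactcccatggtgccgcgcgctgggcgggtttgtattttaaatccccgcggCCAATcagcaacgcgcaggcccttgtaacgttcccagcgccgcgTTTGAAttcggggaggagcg
Cdc20 (chr4:118437294-118437593, minus strand): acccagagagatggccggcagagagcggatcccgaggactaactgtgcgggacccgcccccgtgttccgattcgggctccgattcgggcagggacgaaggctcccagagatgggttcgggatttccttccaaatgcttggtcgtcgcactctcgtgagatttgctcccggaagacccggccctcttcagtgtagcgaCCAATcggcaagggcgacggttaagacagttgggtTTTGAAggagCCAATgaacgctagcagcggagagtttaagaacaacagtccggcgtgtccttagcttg
Ube2c (chr2:164769679-164769978, plus strand): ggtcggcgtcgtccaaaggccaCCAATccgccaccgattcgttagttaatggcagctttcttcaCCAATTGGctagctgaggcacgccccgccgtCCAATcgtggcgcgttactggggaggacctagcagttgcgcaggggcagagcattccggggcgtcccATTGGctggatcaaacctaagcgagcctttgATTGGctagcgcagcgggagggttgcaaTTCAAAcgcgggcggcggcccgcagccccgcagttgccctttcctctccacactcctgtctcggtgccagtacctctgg
Ccnb1 (chr13:100786437-100786736, minus strand): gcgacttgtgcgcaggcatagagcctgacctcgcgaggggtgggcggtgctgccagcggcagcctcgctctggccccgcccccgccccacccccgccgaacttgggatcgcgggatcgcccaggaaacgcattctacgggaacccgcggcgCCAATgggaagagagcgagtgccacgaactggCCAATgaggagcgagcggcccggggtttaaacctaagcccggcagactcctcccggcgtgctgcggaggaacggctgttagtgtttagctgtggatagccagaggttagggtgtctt
Cdk1 (chr10:69352863-69353162, minus strand): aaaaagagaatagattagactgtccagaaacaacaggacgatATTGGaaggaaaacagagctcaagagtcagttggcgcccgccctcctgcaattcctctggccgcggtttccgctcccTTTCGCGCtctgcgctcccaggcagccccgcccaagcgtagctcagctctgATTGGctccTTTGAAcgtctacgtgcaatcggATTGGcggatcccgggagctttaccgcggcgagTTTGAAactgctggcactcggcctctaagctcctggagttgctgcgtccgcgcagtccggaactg
Mcm5 (chr8:75109259-75109558, plus strand): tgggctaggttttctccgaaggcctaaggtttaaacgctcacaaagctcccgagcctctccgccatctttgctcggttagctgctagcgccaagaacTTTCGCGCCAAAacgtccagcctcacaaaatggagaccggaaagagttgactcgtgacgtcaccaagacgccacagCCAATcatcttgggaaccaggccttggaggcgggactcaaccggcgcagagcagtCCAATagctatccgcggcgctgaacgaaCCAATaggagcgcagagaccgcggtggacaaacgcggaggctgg
Cdc6 (chr11:98907901-98908200, plus strand): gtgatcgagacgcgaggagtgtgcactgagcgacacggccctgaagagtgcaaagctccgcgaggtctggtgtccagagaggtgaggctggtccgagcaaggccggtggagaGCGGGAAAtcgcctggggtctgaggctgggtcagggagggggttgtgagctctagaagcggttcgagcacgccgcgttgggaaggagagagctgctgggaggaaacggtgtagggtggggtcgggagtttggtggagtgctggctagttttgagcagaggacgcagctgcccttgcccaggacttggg
Mcm2 (chr6:88898731-88899030, minus strand): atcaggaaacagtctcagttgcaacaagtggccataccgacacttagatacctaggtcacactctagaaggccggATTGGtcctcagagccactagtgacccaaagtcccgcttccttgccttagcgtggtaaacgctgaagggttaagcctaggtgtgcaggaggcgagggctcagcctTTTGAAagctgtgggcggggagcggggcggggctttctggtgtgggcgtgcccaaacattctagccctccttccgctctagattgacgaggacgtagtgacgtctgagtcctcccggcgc
TTTGAA stood in 29 of the 40 windows found for the mitosis list (72.5%) and in 5 of the 35 found for the replication list (14.3%). Among the mitosis windows it stood in 77.8% of the 27 of genes that rose and 61.5% of the 13 of genes that did not pass. It stood in 12.2% of the 8722 windows of tested genes and in 18.1% of all 27025 windows. CCAAT stood in 75% of the mitosis and 60% of the replication windows, against 39.6% of those of tested genes. One of the E2F strings stood in 5% of the mitosis windows and 34.3% of the replication windows, against 4.21% of those of tested genes. A match describes the letters and is not evidence that a factor binds there.

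Before the results, 3 features of the libraries need stating. The 14 libraries held 15471213 to 17673925 counts. Among these 14, skeletal muscle transcripts stood out in PHx48 3 and PHx24 1, which are called the muscle-bearing libraries below. The summed level of the 12 muscle markers was 609 FPKM in PHx48 3 and 1953 FPKM in PHx24 1, against medians of 5.14 FPKM in PHx48 and 4.83 FPKM in PHx24. Summed adipocyte markers were also high in both, at 185 FPKM in PHx48 3 and 100.3 FPKM in PHx24 1 (medians 11.6 FPKM in PHx48 and 13.2 FPKM in PHx24). PHx48 3 held 179 FPKM of exocrine pancreas markers, against a PHx48 median of 9.42 FPKM, and PHx48 1 and 2 held 1018 and 1304 FPKM of erythroid markers, against a PHx48 median of 285 FPKM. Outside the 14, muscle markers summed to 5098 FPKM in sham 1, 85.5 FPKM in sham 2 and 99.4 FPKM in PHx48_ETO 4. Sham 2 also held 1141 FPKM of pancreas markers. These libraries stayed in the sham means and in the 5-group fits, also where PHx48 3 and PHx24 1 were left out. The libraries also fell into sets by the mitochondrial transcript mt-Nd3, a split seen only after the data were examined. PHx48 1 to 4 and PHx24 1 to 4 had at most 6.18 cpm (counts scaled to library totals) of mt-Nd3, while PHx48 5 to 7 and PHx24 5 to 7 had at least 49.3. Sham 1 to 3 were low and sham 4 and 5 and all 8 etomoxir libraries high. The labels name no batch, and what separates the sets was not tested. PHx48 and PHx24 each hold libraries of both sets, as does sham, while PHx48_ETO and PHx24_ETO hold high ones only. The counts over all genes and the list medians were computed within the 8 low and within the 6 high libraries as well, and values within the sets are given below for some lists and genes. All 14 hepatocyte markers were tested and expressed, with a summed level of 40870 to 57871 FPKM in PHx48 and 37215 to 46477 FPKM in PHx24.

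Between the times, 1435 of 12376 genes (11.6%) changed. In PHx48, 766 were higher (6.19%) and 669 lower (5.41%). These shares are the measure for the list counts below. By at least 2-fold, 234 were higher (1.89%) and 87 lower (0.703%). Without the muscle-bearing PHx48 3 and PHx24 1, 569 were higher and 475 lower. Within the 8 low libraries 725 were higher and 630 lower, and within the 6 high ones 367 and 183. Of the 766 genes 482 were also called higher within the low and 284 within the high libraries, and of the 669 genes 390 and 116 lower. These changes are relative to the typical gene. Scaling to library totals moved the median of all genes by 0.12 on the log2 scale and gave 1453 higher and 320 lower (82% higher, against 53.4% here), and limma on log2(TPM + 1), with TPM totals made equal, moved it by 0.13 and gave 1691 and 264 (86.5% higher), where limma on log2(FPKM + 1) gave 828 and 631 (56.8% higher). Calls with TPM totals, here and later, are those of limma. In bulk tissue, fewer cells of a type and less RNA per cell cannot be told apart.

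**Figure D1:**
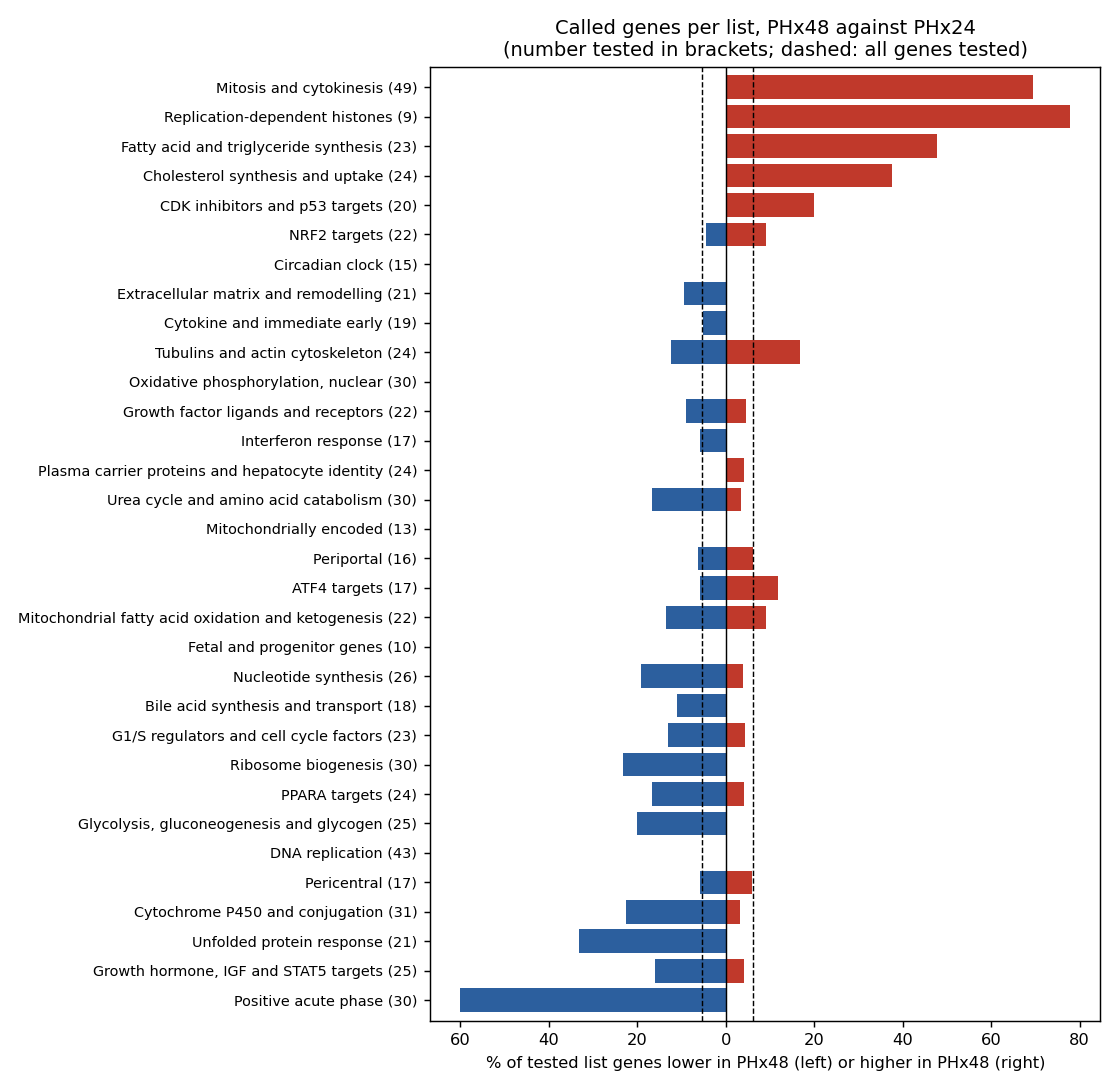
Share of tested genes of each of the 32 gene lists that were higher (red, right) or lower (blue, left) in PHx48 than in PHx24, in percent, ordered by the median log2 fold change; dashed lines mark all genes tested (6.19% higher, 5.41% lower). Mitosis, histone and lipid synthesis lists reach furthest right and the acute-phase list furthest left. The histone share rests on 9 tested genes of 25, some of them under 1 FPKM in every PHx24 library.

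Genes of mitosis and cytokinesis were higher at 48 h. Of 49 tested genes 34 rose and the other 15 did not pass, with a median log2 fold change of 1.55, against -0.01 over all tested genes. At an unadjusted edgeR p under 0.05, 45 of the 49 were higher and 0 lower. Ccnb2, the gene of cyclin B2, had 37.8, 48.6 and 62.1 FPKM in PHx48, against 0.966, 3.71 and 11.1 FPKM in PHx24 (lowest, median and highest of the 7 libraries of a group, here and for later genes). Every PHx48 library stood above every PHx24 library (log2 fold change 3.36, SE 0.412, adjusted p = 5.6e-06). Where a bracket gives 1 number ahead of an adjusted p, it is the log2 fold change, PHx48 over PHx24, by edgeR. Ccnb1, cyclin B1, had 13.4, 17 and 32.5 FPKM in PHx48, against 0.645, 1.53 and 4.62 FPKM in PHx24 (log2 fold change 3.07, SE 0.529, adjusted p = 0.000339). PHx48 5 was highest and PHx24 2 lowest for both cyclins. Cdc20, which activates the anaphase-promoting complex, had 61.3, 93.9 and 161 FPKM in PHx48, against 2.85, 10.2 and 22 FPKM in PHx24 (log2 fold change 2.97, SE 0.492, adjusted p = 0.000211). It overlaps Elovl1, with which it can share reads, since the kit does not mark strand. Ube2c, the ubiquitin-conjugating enzyme of the same complex, had 25.5, 27.6 and 56.2 FPKM in PHx48, against 2.12, 7.13 and 14 FPKM in PHx24 (log2 fold change 2.22, SE 0.441, adjusted p = 0.00136).

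The mitotic kinase gene Plk1 had 18.7, 23.2 and 33.1 FPKM in PHx48, against 1.05, 4.36 and 9.82 FPKM in PHx24 (log2 fold change 2.19, SE 0.455, adjusted p = 0.00198). Cenpa, the histone H3 variant of centromeres, had 10.1, 13.4 and 20.4 FPKM in PHx48, against 2.14, 2.98 and 4.82 FPKM in PHx24 (log2 fold change 2.14, SE 0.22, adjusted p = 4.55e-07). Both were free of overlap between the groups, with PHx24 6 the closest to PHx48. Cdkn3, a phosphatase that acts on cyclin-dependent kinases, showed the smallest p of the list and had 11.8, 15.9 and 19 FPKM in PHx48, against 0.299, 0.926 and 2.5 FPKM in PHx24 (log2 fold change 3.83, SE 0.319, adjusted p = 1.57e-08). Kif20a, a kinesin needed for cytokinesis, had 8.4, 13.2 and 25.5 FPKM in PHx48, against 0.592, 2.04 and 3.28 FPKM in PHx24 (log2 fold change 2.76, SE 0.425, adjusted p = 9.2e-05) and overlaps Cdc23. Pimreg, a regulator of the step from metaphase to anaphase, and Knstrn, a spindle and kinetochore protein gene, were among the 12 largest rises without being on the list. Pimreg had 0.882, 1.39 and 2.12 FPKM in PHx48, against 0.0224, 0.0719 and 0.228 FPKM in PHx24 (3.70, adjusted p = 3.15e-06), and Knstrn 12.4, 16 and 20.1 FPKM in PHx48, against 0.528, 1.67 and 3.03 FPKM in PHx24 (3.20, adjusted p = 3.07e-06). Pimreg stayed under 1 FPKM in every PHx24 library, so it could reach the level tested only through other groups. Ccna2, cyclin A2, which serves S phase and mitosis, had 9.23, 12.3 and 18.9 FPKM in PHx48, against 1.38, 3.8 and 6.02 FPKM in PHx24 (log2 fold change 1.81, SE 0.4, adjusted p = 0.00346) and overlaps Exosc9.

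Not every mitotic gene was separated. Cdk1, the kinase that cyclin B activates, had 10.6, 13.4 and 22.8 FPKM in PHx48, against 1.43, 5.19 and 11.7 FPKM in PHx24, with PHx24 6 above the lowest PHx48 libraries. Its rise passed narrowly (log2 fold change 1.43, SE 0.44, adjusted p = 0.0345) and was lost when any 1 of 8 libraries was left out (PHx48 5, 6 or 7 or PHx24 1 to 5, adjusted p up to 0.0667) or both muscle-bearing ones. The proliferation marker Mki67 had 8.96, 13.3 and 19.8 FPKM in PHx48, against 1.27, 5.15 and 9.7 FPKM in PHx24 and did not pass (log2 fold change 1.40, SE 0.49, adjusted p = 0.0627). It passed without PHx24 6 (1.64, adjusted p = 0.0389), and both it and Foxm1 passed in limma and in the 14 libraries fitted alone. Foxm1, a transcription factor of the mitotic programme, had 5.56, 6.16 and 7.99 FPKM in PHx48, against 0.781, 2.84 and 4.03 FPKM in PHx24, which did not overlap between groups, and did not pass in the 27-library fit (1.23, adjusted p = 0.062). Top2a, the topoisomerase that untangles sister chromatids, had 5.56, 7.84 and 12.6 FPKM in PHx48, against 1.33, 5.18 and 9.04 FPKM in PHx24 (0.70, adjusted p = 0.369). Of the 49 mitosis genes, 30 did not overlap between the groups, where 2.88% of all tested genes were free of overlap and higher in PHx48. Within the low mt-Nd3 libraries 35 rose, with a median of 1.74, and within the high ones 39, with a median of 1.55. Without the muscle-bearing libraries 30 rose.

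**Figure D2:**
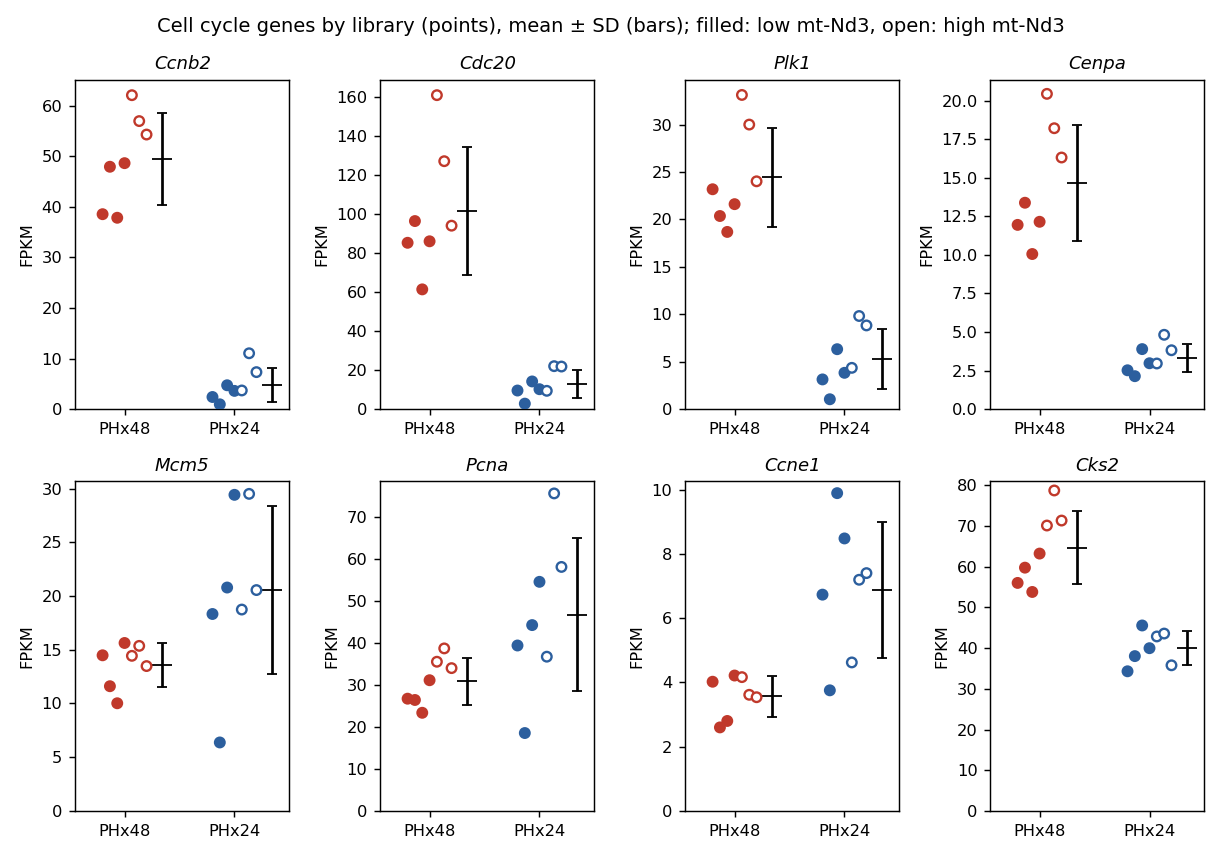
FPKM of 8 cell cycle genes in each PHx48 (left, red) and PHx24 (right, blue) library, as points filled for low and open for high mt-Nd3, with the mean ± SD of 7 libraries. Ccnb2, Cdc20, Plk1, Cenpa and Cks2 do not overlap between the groups; Mcm5, Pcna and Ccne1 do.

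DNA replication genes, in contrast, gave no call. By edgeR 0 of 43 tested genes passed, 11 were lower and 0 higher at an unadjusted p under 0.05, DESeq2 called 2 lower and limma on log2(FPKM + 1) 0. Their median was -0.31. Mcm5, a subunit of the replicative helicase, had 10, 14.4 and 15.6 FPKM in PHx48, against 6.37, 20.6 and 29.5 FPKM in PHx24 (-0.60, adjusted p = 0.308). PHx24 spanned a wide range that enclosed every PHx48 value, with PHx24 2 lowest. Mcm2, another helicase subunit, had 3.46, 5.36 and 5.72 FPKM in PHx48, against 3.99, 8.13 and 11.2 FPKM in PHx24 (-0.64, adjusted p = 0.155). The sliding clamp gene Pcna had 23.4, 31.1 and 38.7 FPKM in PHx48, against 18.5, 44.2 and 75.6 FPKM in PHx24 (-0.60, adjusted p = 0.162), and Cdc6, which loads the helicase, 0.886, 1.5 and 2.13 FPKM in PHx48, against 0.727, 2.2 and 4.09 FPKM in PHx24 (-0.68, adjusted p = 0.425). For comparison, Mcm5 averaged 0.965 ± 0.287 FPKM in sham (SD, n = 5), below every resected library. A fit of the 14 libraries alone called 4 replication genes lower.

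The 14 libraries differed in where they stood on both lists. The mean log2(FPKM + 1) of the 49 mitosis genes was 2.78 to 3.71 in PHx48 and 0.91 to 2.52 in PHx24, with no overlap. That of the 43 replication genes was 2.30 to 2.88 in PHx48 and 2.05 to 3.25 in PHx24. PHx24 2 was lowest on both lists at 24 h, and PHx24 6 highest for mitosis. PHx48 5 was highest for mitosis at 48 h. The sham libraries stood between 0.47 and 0.75 for mitosis and between 1.40 and 1.51 for replication. These means are a description and carry no test.

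**Figure D3:**
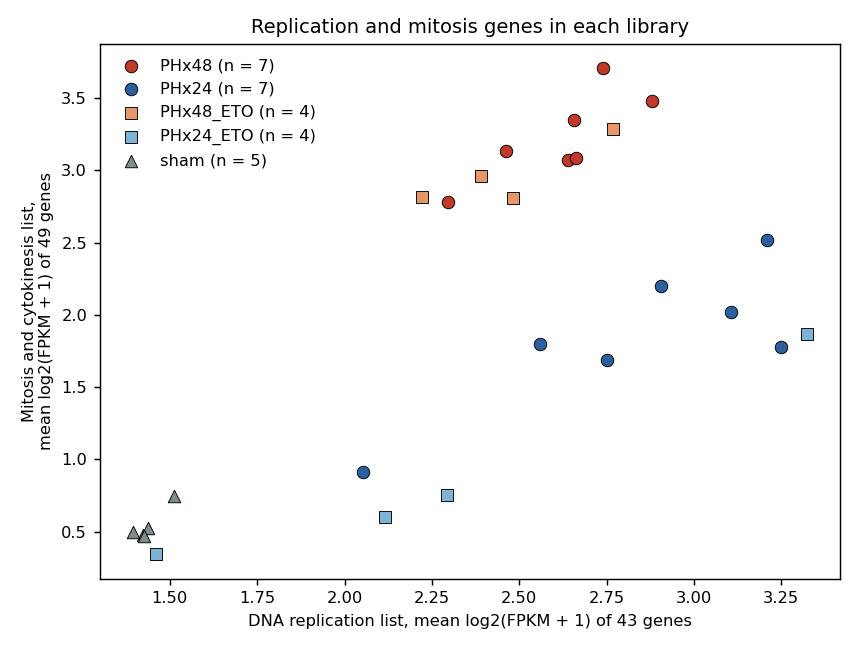
Each point is 1 library, placed by the mean log2(FPKM + 1) of 43 replication genes (horizontal) and 49 mitosis genes (vertical). PHx48 (red circles) stands at 2.78 to 3.71 for mitosis, above PHx24 (blue circles) at 0.91 to 2.52, while the replication values of the groups overlap; squares are etomoxir livers and triangles sham.

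Regulators of the entry into S phase changed in few cases. Of 23 tested genes of the G1/S list 1 rose (4.35%) and 3 fell (13%), with a median of -0.22, against 6.19% and 5.41% of all tested genes. The gene that rose was Cks2, a small subunit of cyclin-dependent kinases that also serves mitosis, with 53.8, 63.2 and 78.8 FPKM in PHx48, against 34.3, 40 and 45.6 FPKM in PHx24 (log2 fold change 0.69, SE 0.111, adjusted p = 0.000151). Ccne1, cyclin E1, which starts DNA replication with CDK2, fell, with 2.6, 3.62 and 4.22 FPKM in PHx48, against 3.76, 7.2 and 9.9 FPKM in PHx24 (log2 fold change -0.95, SE 0.254, adjusted p = 0.0148). PHx24 2 alone lay within the PHx48 range. Cdk6, a kinase partner of D-type cyclins, fell by a small step without overlap, with 1.67, 2.03 and 2.19 FPKM in PHx48, against 2.39, 2.65 and 3.22 FPKM in PHx24 (-0.45, adjusted p = 0.00222). Ccnd3, cyclin D3, which overlaps Bysl, fell as well (-0.36, adjusted p = 0.00913). The falls of Cdk6 and Ccnd3 did not pass with equal TPM totals, nor that of Ccnd3 with library totals. Ccnd1, cyclin D1, did not pass (-0.35, adjusted p = 0.458), with a log2 fold change of 0.10 within the low and -1.12 within the high mt-Nd3 libraries, a difference that did not pass (-1.22, SE 0.319, adjusted p = 0.186). E2f1, a transcription factor of replication genes, did not pass either (-0.47, adjusted p = 0.455).

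Among 20 tested CDK inhibitors and p53 targets 4 rose, with a median of 0.48, and 12 were higher at an unadjusted p under 0.05. Psrc1, a spindle protein gene regulated by p53, had 2.47, 3.37 and 4.21 FPKM in PHx48, against 0.0879, 0.724 and 2.09 FPKM in PHx24 (2.05, adjusted p = 0.00527). Bbc3, which encodes the pro-apoptotic protein PUMA, had 4.75, 6.73 and 8.26 FPKM in PHx48, against 3.21, 4.14 and 5.77 FPKM in PHx24 (0.60, adjusted p = 0.0106). The other members that rose, Gtse1, a microtubule-binding regulator of p53, and Cdkn1b, the inhibitor p27, passed only just (1.06, adjusted p = 0.0435 and 0.34, adjusted p = 0.0464) and each lost its call when any 1 of 12 libraries was left out, Gtse1 also without both muscle-bearing ones. Cdkn1a, the inhibitor p21 and the standard p53 target, did not pass (21.2, 23.8 and 35.7 FPKM in PHx48, against 12.5, 18 and 29.7 FPKM in PHx24, 0.47, adjusted p = 0.281).

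Of 9 tested histone genes, out of 25 listed, 7 rose, with a median of 1.15. Hist1h3g and Hist1h3d stayed under 1 FPKM in every PHx24 library, so they could reach the level tested only through other groups. The count that rose therefore follows in part from the filter. These libraries were made from polyadenylated RNA, which holds little of the replication-dependent histone mRNA, and near-identical members can take each other's reads, so single values are uncertain. Hist1h3g had 1.4, 2.11 and 3.65 FPKM in PHx48, against 0, 0.109 and 0.56 FPKM in PHx24 (3.92, adjusted p = 1.02e-05), Hist1h3d 0.564, 0.87 and 1.42 FPKM in PHx48, against 0.0474, 0.139 and 0.436 FPKM in PHx24 (2.34, adjusted p = 0.000193). Hist1h3c and Hist1h4i rose too (2.17, adjusted p = 0.00139 and 1.29, adjusted p = 0.00125). H2afz, the variant H2A.Z that is not tied to replication, was far more abundant, with 125, 147 and 168 FPKM in PHx48, against 38.9, 67.2 and 98.1 FPKM in PHx24 (log2 fold change 1.11, SE 0.195, adjusted p = 0.000412). Every PHx48 library was above every PHx24 library.

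Tubulin and cytoskeletal genes moved in both directions: of 24 tested, 4 rose (16.7%) and 3 fell (12.5%), against 6.19% and 5.41% of all tested genes. Tubb6, a β-tubulin gene, had 68.8, 79.9 and 90.6 FPKM in PHx48, against 18.8, 29.4 and 44.3 FPKM in PHx24 (1.41, adjusted p = 7.09e-05). Tubb4b, another β-tubulin gene, had 208, 295 and 336 FPKM in PHx48, against 132, 154 and 189 FPKM in PHx24 (0.79, adjusted p = 8.88e-05). Stmn1, whose product takes microtubules apart, had 76, 88.8 and 115 FPKM in PHx48, against 9.45, 30.3 and 44.9 FPKM in PHx24 (1.70, adjusted p = 0.00213). The β-tubulin gene Tubb2a and the α-tubulin gene Tuba4a moved the other way: Tubb2a had 122, 142 and 188 FPKM in PHx48, against 189, 248 and 384 FPKM in PHx24 (-0.81, adjusted p = 0.016), and Tuba4a, which overlaps Stk16, 37, 51.5 and 66.9 FPKM in PHx48, against 68.2, 85 and 102 FPKM in PHx24 (-0.75, adjusted p = 5.72e-05). Members of a family thus changed in opposite directions without overlap between the groups, though the fall of Tubb2a did not pass with equal TPM totals. The α-tubulin gene Tuba1b rose and the β-tubulin gene Tubb5 fell with overlap (0.47, adjusted p = 0.0262 and -0.32, adjusted p = 0.0335), calls lost on leaving out any 1 of 4 and any 1 of 7 libraries. The list median was 0.22 within the low mt-Nd3 libraries, with 4 higher and 1 lower, and -0.21 within the high ones, with 3 higher and 1 lower.

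Of 30 ribosome biogenesis genes 7 fell, with a median of -0.26. Rrp9, a protein of the U3 particle that processes ribosomal RNA, had 3.36, 4.31 and 4.58 FPKM in PHx48, against 4.72, 5.84 and 7.67 FPKM in PHx24 (log2 fold change -0.54, SE 0.103, adjusted p = 0.000864). Nop56, a core protein of box C/D particles, had 9.42, 10.4 and 12.5 FPKM in PHx48, against 10.9, 14.3 and 20.5 FPKM in PHx24 (-0.50, adjusted p = 0.0117). Utp4 and Heatr1, both of the small-subunit processome, fell by less (-0.36, adjusted p = 0.0156 and -0.35, adjusted p = 0.0113); Heatr1 overlaps Lgals8. With library totals 2 of the 30 fell and with equal TPM totals 1, and 5 without the muscle-bearing libraries. Within the low mt-Nd3 libraries 9 fell, and within the high ones 0.

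Of 26 nucleotide synthesis genes 5 fell (19.2%) and 1 rose (3.85%), against 5.41% and 6.19% of all tested genes. Both CTP synthase genes passed, in opposite directions: Ctps had 2.64, 3.72 and 4.75 FPKM in PHx48, against 5.34, 6.94 and 9.14 FPKM in PHx24 (log2 fold change -0.85, SE 0.182, adjusted p = 0.00257), and Ctps2 3.37, 3.85 and 4.39 FPKM in PHx48, against 2.06, 2.62 and 3.04 FPKM in PHx24 (log2 fold change 0.56, SE 0.12, adjusted p = 0.00259). PHx48 and PHx24 did not overlap for either. Umps, which makes UMP, fell (-0.42, adjusted p = 0.0285), as did the purine synthesis genes Pfas (-0.43, adjusted p = 0.0364) and Impdh2 (-0.29, adjusted p = 0.0383), with overlap between the groups. These calls were lost on leaving out any 1 of 7 libraries for Umps and any 1 of 9 for Pfas and for Impdh2. Of the list, 2 fell without the muscle-bearing libraries and 1 with library totals.

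The acute-phase genes fell together. Of 30 tested genes 18 fell and the other 12 did not pass, with a median of -1.0, and 17 did not overlap between the groups (2.04% of all genes were free of overlap and lower). Lcn2, the gene of the iron-binding defence protein lipocalin 2, had 56.3, 147 and 218 FPKM in PHx48, against 560.3, 619.5 and 968 FPKM in PHx24 (log2 fold change -2.38, SE 0.29, adjusted p = 5.21e-06). Saa2, a serum amyloid A gene, had 338, 725 and 1456 FPKM in PHx48, against 2906, 3715 and 4245 FPKM in PHx24 (log2 fold change -2.09, SE 0.396, adjusted p = 0.000838). Its neighbour Saa1 had 534, 1031 and 1799.9 FPKM in PHx48, against 2996, 3618 and 4314 FPKM in PHx24 (-1.68, adjusted p = 0.00206); reads of this pair cannot be fully separated. PHx48 6 and 7 kept the highest values of all 3 genes at 48 h. In sham, below every resected library, Lcn2 averaged 2.16 ± 0.992 FPKM and Saa2 11.4 ± 8.78 FPKM (SD, n = 5).

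Hp, which encodes the haemoglobin-binding protein haptoglobin, had 2339, 2773 and 5382 FPKM in PHx48, against 7492, 8313 and 9653 FPKM in PHx24 (log2 fold change -1.40, SE 0.237, adjusted p = 0.000279). Serpina3n, a protease inhibitor gene, had 260.0, 309 and 409 FPKM in PHx48, against 648, 958 and 1339.7 FPKM in PHx24 (-1.62, adjusted p = 2.41e-05), with reads that near-identical Serpina3 genes may share. Apcs, serum amyloid P component, had 149, 168 and 282 FPKM in PHx48, against 368, 576 and 883 FPKM in PHx24 (-1.62, adjusted p = 5.01e-05). In each the lowest PHx24 library exceeded the highest PHx48 library. Lrg1, a leucine-rich glycoprotein, and Itih3, a hyaluronan-binding plasma protein gene, followed with -1.36, adjusted p = 0.000129 and -0.96, adjusted p = 5.72e-05. Within the low mt-Nd3 libraries 19 of the 30 fell (median -1.0) and within the high ones 12 (median -0.93). Of 19 genes of cytokine signalling and immediate early response 1 fell, Nfkbiz, a nuclear partner of NF-κB (2.28, 2.87 and 3.26 FPKM in PHx48, against 2.93, 4.39 and 7.51 FPKM in PHx24, -0.69, adjusted p = 0.0134), and its fall did not pass with library or TPM totals. That 1 of 19 is 5.26%, near the 5.41% of all tested genes that fell.

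**Figure D4:**
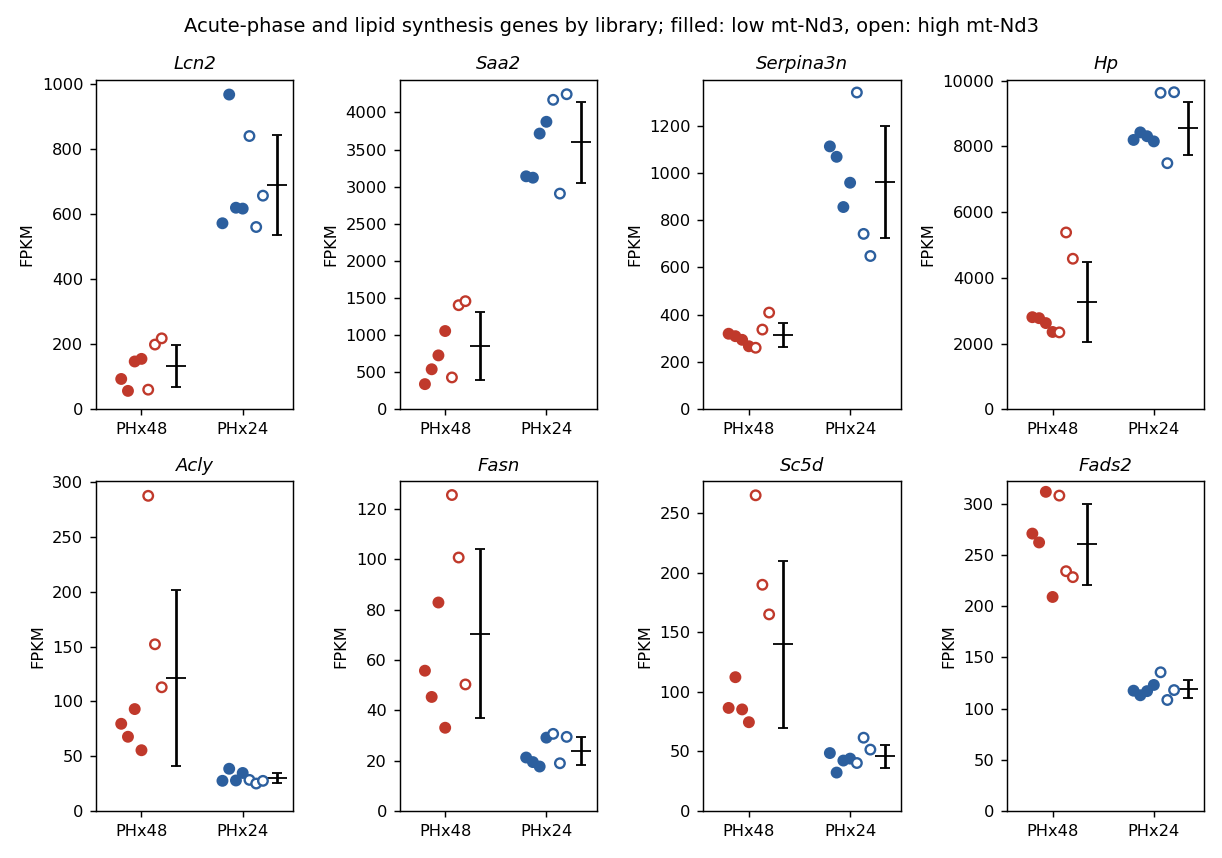
FPKM of 4 acute-phase genes (top) and 4 lipid synthesis genes (bottom) in each PHx48 (left, red) and PHx24 (right, blue) library, filled for low and open for high mt-Nd3, with the mean ± SD of 7 libraries. All acute-phase values at 48 h lie below those at 24 h; Acly and Sc5d are highest in the open PHx48 points.

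Genes of the unfolded protein response, which help the endoplasmic reticulum fold and discard proteins, were lower in 7 of 21 cases, with a median of -0.40. Derl3, a component of the disposal route for misfolded proteins, had 0.178, 0.336 and 0.646 FPKM in PHx48, against 1.31, 1.59 and 4.23 FPKM in PHx24 (log2 fold change -2.66, SE 0.439, adjusted p = 0.000209), the largest fall among named genes without overlap. It stayed under 1 FPKM in every PHx48 library, so it could reach the level tested only through other groups. Sdf2l1, a chaperone partner, had 32.6, 36.5 and 61.2 FPKM in PHx48, against 65.4, 89.7 and 145 FPKM in PHx24 (-1.22, adjusted p = 0.000543). Calr, calreticulin, had 244, 273 and 329.5 FPKM in PHx48, against 400.1, 473 and 523 FPKM in PHx24 (log2 fold change -0.71, SE 0.106, adjusted p = 6.2e-05), and Dnajc3, a co-chaperone, 41.2, 45.2 and 53.3 FPKM in PHx48, against 57.3, 77.7 and 84.6 FPKM in PHx24 (-0.62, adjusted p = 0.00101). PHx24 6 and 7 held the highest Derl3 and Sdf2l1 values. The fall of Sdf2l1 was -0.68 within the low and -1.88 within the high mt-Nd3 libraries, where 5 and 11 of the 21 genes fell.

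Of 17 ATF4 targets 2 rose (11.8%) and 1 fell (5.88%), against 6.19% and 5.41% of all tested genes. Atf4 itself, the transcription factor of the amino acid response, had 53.8, 57.2 and 60.7 FPKM in PHx48, against 41.4, 45.2 and 48.6 FPKM in PHx24 (0.33, adjusted p = 0.0149). The serine synthesis gene Psph, which overlaps Cct6a, rose (0.64, adjusted p = 0.00505), and the alanyl-tRNA synthetase gene Aars fell (-0.54, adjusted p = 0.00168). Of 22 NRF2 targets 2 rose and 1 fell, with Gstp1, a glutathione transferase gene with near-identical copies, at 2052, 2279 and 2906 FPKM in PHx48, against 1019, 1348 and 1936 FPKM in PHx24 (0.69, adjusted p = 0.00168). Pgd rose and Gclm fell by little (0.62, adjusted p = 0.0266 and -0.30, adjusted p = 0.0232) and each lost its call on leaving out any 1 of 3 libraries or both muscle-bearing ones. The shares of NRF2 targets were 9.09% higher and 4.55% lower, against 6.19% and 5.41% of all tested genes.

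Lipid synthesis genes rose. Of 23 genes of fatty acid and triglyceride synthesis 11 rose and the other 12 did not pass, with a median of 0.68. Acly, which makes cytosolic acetyl-CoA from citrate, had 55.4, 93 and 288 FPKM in PHx48, against 25, 27.8 and 38.5 FPKM in PHx24 (log2 fold change 2.01, SE 0.259, adjusted p = 1.04e-05). PHx48 5 to 7 held its highest values, and the log2 fold change was 1.22 within the low and 2.76 within the high mt-Nd3 libraries. Fasn, fatty acid synthase, had 33.1, 55.7 and 126 FPKM in PHx48, against 17.6, 21.2 and 30.6 FPKM in PHx24 (log2 fold change 1.56, SE 0.276, adjusted p = 0.000415). The desaturase genes Fads2 and Fads1, which act on polyunsaturated fatty acids, had the smallest p of the list. Fads2 had 209, 262 and 312 FPKM in PHx48, against 108, 117 and 135 FPKM in PHx24 (log2 fold change 1.13, SE 0.123, adjusted p = 1.04e-06), and Fads1 119, 163 and 170.2 FPKM in PHx48, against 69.7, 82.3 and 99.7 FPKM in PHx24 (0.85, adjusted p = 4.46e-06).

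Pnpla3, a lipid droplet protein gene under sterol and carbohydrate control, had 1.96, 3.53 and 14.4 FPKM in PHx48, against 0.261, 0.384 and 1.45 FPKM in PHx24 (log2 fold change 3.11, SE 0.613, adjusted p = 0.00125), a low-level gene with its peak in PHx48 5 and 3. Scd1, the stearoyl-CoA desaturase gene, had 315, 724 and 1346 FPKM in PHx48, against 134, 166 and 547 FPKM in PHx24 (1.55, adjusted p = 0.00689), with PHx24 5 and 7 inside the PHx48 range. Fasn averaged 41.5 ± 19.9 FPKM and Scd1 1042 ± 466 FPKM in sham (SD, n = 5), so that PHx48 was above sham for Fasn and below it for Scd1 in the group means, which were not tested here.

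Cholesterol genes rose in 9 of 24 cases, with a median of 0.56. Sc5d, a late enzyme of the pathway, had 74.6, 112 and 265 FPKM in PHx48, against 32.2, 43.9 and 61.5 FPKM in PHx24 (log2 fold change 1.60, SE 0.241, adjusted p = 7.19e-05), with every PHx48 library above every PHx24 library. Ebp and Dhcr7, both late enzymes, rose by 0.74 and 0.92 (adjusted p = 0.00223 and 0.00207).

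The rise of the sterol genes was uneven between library sets. The list median was 0.05 within the low mt-Nd3 libraries, with 3 genes higher and 3 lower. It was 1.01 within the high ones, with 10 higher. For fatty acid synthesis the medians were 0.33 with 6 higher and 1 lower, and 0.86 with 12 higher. Sc5d changed by 1.11 within the low and 2.0 within the high libraries. A test of the difference between the sets called 3 of 12376 genes with a higher and 1 with a lower change in the high set, and no gene of either lipid list was among them, so for those lists the difference was not shown beyond the spread between libraries.

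**Figure D5:**
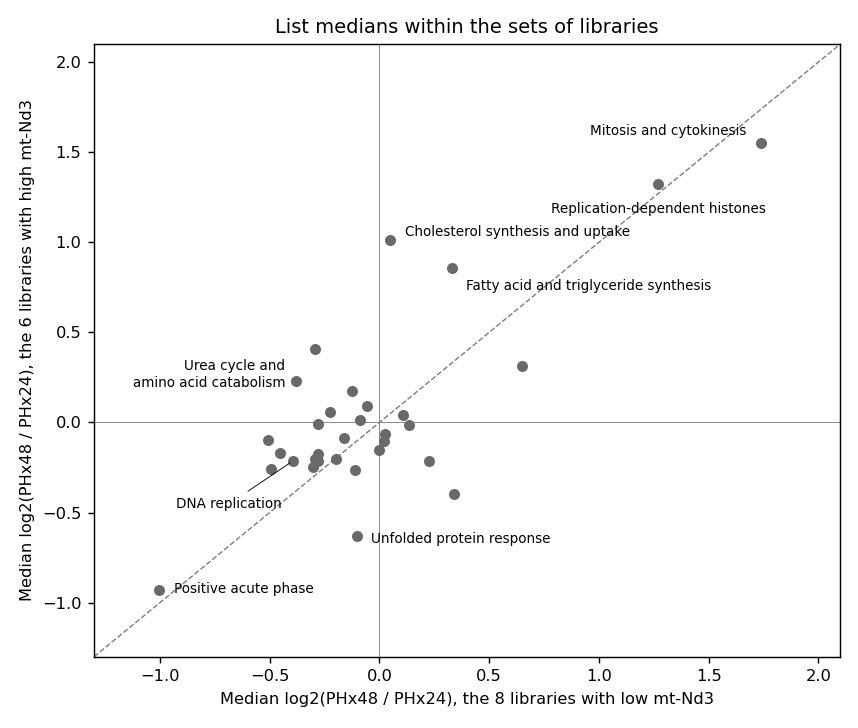
Median log2 fold change (PHx48 over PHx24) of each of the 32 lists within the 8 libraries with low mt-Nd3 (horizontal) and the 6 with high mt-Nd3 (vertical), with the line of equality dashed. Mitosis, histone and acute-phase lists lie near the line, the cholesterol list at 0.05 and 1.01, the urea cycle list at -0.38 and 0.23 and the unfolded protein list at -0.10 and -0.63.

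Of 22 genes of mitochondrial fatty acid oxidation and ketogenesis 2 rose (9.09%) and 3 fell (13.6%), with a median of -0.13. Over all tested genes the shares were 6.19% and 5.41%. Acadm, the medium-chain acyl-CoA dehydrogenase gene, had 87.7, 98.6 and 107 FPKM in PHx48, against 58.7, 64.8 and 82.1 FPKM in PHx24 (0.52, adjusted p = 0.00198). Acadvl, the very-long-chain enzyme, had 58.6, 66.6 and 76.7 FPKM in PHx48, against 75.5, 84.8 and 102 FPKM in PHx24 (-0.38, adjusted p = 0.00219), a fall that did not pass with equal TPM totals. Etfdh, which passes the electrons on to the respiratory chain, had 15, 19.7 and 23.9 FPKM in PHx48, against 24.1, 28.4 and 30.1 FPKM in PHx24 (-0.46, adjusted p = 0.00503). Cpt1a, the target of etomoxir and gate of the pathway, did not pass (37.9, 46.5 and 53.4 FPKM in PHx48, against 35.1, 40.8 and 46.3 FPKM in PHx24, 0.17, adjusted p = 0.522). Hadh, a later enzyme of the cycle, rose (0.51, adjusted p = 0.0334) but lost its call on leaving out any 1 of 7 libraries.

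Among 24 targets of PPARA, the fatty acid receptor, 4 fell (16.7%) and 1 rose (4.17%), with a median of -0.26. Of all tested genes 5.41% fell and 6.19% rose. Slc22a5, the carnitine transporter gene, had 2.94, 4.32 and 5.42 FPKM in PHx48, against 6.96, 8.6 and 12.2 FPKM in PHx24 (log2 fold change -1.12, SE 0.152, adjusted p = 1.75e-05), with the groups apart. The ω-hydroxylase genes Cyp4a10 and Cyp4a14, near-identical in part, had 24.9, 46.4 and 81.1 FPKM in PHx48, against 73.8, 164 and 299.9 FPKM in PHx24 (-1.80, adjusted p = 0.00757) and 21, 57.1 and 122 FPKM in PHx48, against 70.6, 180.3 and 545 FPKM in PHx24 (-2.01, adjusted p = 0.0187). Within PHx24 they were lowest in PHx24 6 and 7 and highest in PHx24 5, and without PHx24 5 the fall of Cyp4a14 did not pass (-1.65, adjusted p = 0.0559). The gene that rose, the thioesterase gene Acot1, lost its call on leaving out any 1 of 5 libraries (0.97, adjusted p = 0.0281).

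Of 18 bile acid genes 2 fell (11.1%, against 5.41% of all tested genes), both of them organic anion transporters. Slco1a4 had 4.55, 7.41 and 7.79 FPKM in PHx48, against 8.05, 16.8 and 20.1 FPKM in PHx24 (-1.10, adjusted p = 0.00156) and Slco1b2 44.4, 80 and 98.9 FPKM in PHx48, against 86.3, 171 and 209 FPKM in PHx24 (-1.08, adjusted p = 0.0167), the second not passing without the muscle-bearing libraries. Cyp7a1, the rate-limiting enzyme of bile acid synthesis, varied widely, with 9.23, 24.2 and 48 FPKM in PHx48, against 0.765, 9.97 and 19.2 FPKM in PHx24, and did not pass (1.42, adjusted p = 0.188).

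Amino acid and glucose genes fell in a minority, though in larger shares (16.7% and 20%) than all tested genes (5.41%). Of 30 urea cycle and amino acid genes 5 fell and 1 rose, and 2 fell without the muscle-bearing libraries. Slc25a15, the mitochondrial ornithine carrier gene, had 54.3, 60.9 and 103 FPKM in PHx48, against 91.1, 109 and 179 FPKM in PHx24 (log2 fold change -0.78, SE 0.154, adjusted p = 0.00125). Oat, ornithine aminotransferase, had 412, 561 and 1179 FPKM in PHx48, against 969.7, 1095 and 1299.7 FPKM in PHx24 (-0.81, adjusted p = 0.0147), with PHx48 6 at 1179 FPKM inside the PHx24 range, and its fall did not pass without the muscle-bearing libraries. Glud1, glutamate dehydrogenase, fell (-0.47, adjusted p = 0.008), and Kmo, a kynurenine pathway enzyme gene, rose (0.50, adjusted p = 0.00136). Kynu, the kynureninase gene of the same pathway, fell (-0.63, adjusted p = 0.0392), a call lost on leaving out any 1 of 11 libraries. Within the low mt-Nd3 libraries 15 of the 30 fell and 1 rose, while within the high ones 4 rose and 0 fell, with medians of -0.38 and 0.23.

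The change itself differed between the sets for Asl and Ass1, neighbouring enzymes of the urea cycle, which were singled out after their values were seen. Asl changed by -1.19 within the low and 0.41 within the high mt-Nd3 libraries (difference 1.61, SE 0.207, adjusted p = 0.0237 by edgeR). Ass1 changed by -0.13 and 1.06 (difference 1.2, SE 0.187, adjusted p = 0.0489). Neither passed over the 14 libraries together, with Asl at 43.5, 62.4 and 115 FPKM in PHx48, against 71.8, 102 and 144 FPKM in PHx24 (-0.47, adjusted p = 0.132) and Ass1 at 947, 1179.7 and 1664 FPKM in PHx48, against 612, 1086 and 1162 FPKM in PHx24 (0.38, adjusted p = 0.158). For Ccnd1, Sdf2l1, Acly, Sc5d, Pck1 and Krt23, whose changes within both sets are also given, the difference did not pass (adjusted p of at least 0.133).

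Of 25 genes of glycolysis, gluconeogenesis and glycogen 5 fell. Pcx, pyruvate carboxylase, the first step of gluconeogenesis from pyruvate, had 77.8, 85.4 and 103 FPKM in PHx48, against 108, 133 and 155 FPKM in PHx24 (log2 fold change -0.60, SE 0.0911, adjusted p = 8.27e-05). Pck1, the gene of its next enzyme, had 102, 235 and 561 FPKM in PHx48, against 508, 626 and 1218 FPKM in PHx24 (log2 fold change -1.29, SE 0.32, adjusted p = 0.00875). PHx48 6 and 7 stood near PHx24 for Pck1, and its change was -1.88 within the low and -0.64 within the high mt-Nd3 libraries. Gckr, the inhibitor of glucokinase, and the glycolytic enzyme gene Eno1 fell as well (-0.47, adjusted p = 0.00399 and -0.57, adjusted p = 0.00623). Pcx and Gckr did not overlap between the groups.

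Of 31 genes of cytochrome P450 and conjugation 7 fell (22.6%) and 1 rose (3.23%), with a median of -0.39. The shares over all tested genes were 5.41% and 6.19%. Cyp2d10 had 166, 203 and 285 FPKM in PHx48, against 371, 418 and 444 FPKM in PHx24 (log2 fold change -0.91, SE 0.117, adjusted p = 1e-05), and Cyp3a25 92.8, 179.7 and 219 FPKM in PHx48, against 233, 261 and 343 FPKM in PHx24 (-0.73, adjusted p = 0.00433). Por, the reductase that feeds electrons to these enzymes, had 52.7, 68 and 86 FPKM in PHx48, against 85, 138 and 153 FPKM in PHx24 (-0.94, adjusted p = 0.000578), above sham (36.3 ± 5.36 FPKM, SD, n = 5) at both times. Nr1i3, the xenobiotic receptor CAR, fell as well (-0.94, adjusted p = 8.03e-05) and overlaps Tomm40l. The gene that rose was Cyp2a4, a steroid hydroxylase with a near-identical copy, with 0.957, 5.1 and 11.3 FPKM in PHx48, against 0.105, 0.306 and 2.12 FPKM in PHx24 (log2 fold change 3.30, SE 0.727, adjusted p = 0.00343) and a PHx48 range that reached down into PHx24. P450 genes of these families are similar in sequence, so their values are uncertain.

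Of 25 genes of the growth hormone and IGF axis 4 fell (16%) and 1 rose (4%), against 5.41% and 6.19% of all tested genes. Without the muscle-bearing libraries 2 fell and 0 rose by edgeR. The gene that rose, the selenium-binding protein gene Selenbp2, which has a near-identical copy, had 159.8, 277 and 396 FPKM in PHx48, against 20.4, 65.6 and 168 FPKM in PHx24 (1.75, adjusted p = 0.0275), and lost its call on leaving out any 1 of 5 libraries. Cyp4a12a, a P450 gene, and Mup20, a major urinary protein gene, both of families with near-identical members, fell (-0.87, adjusted p = 0.0224 and -0.69, adjusted p = 0.0415), and lost their calls on leaving out any 1 of 2 and any 1 of 11 libraries. Serpina12, the vaspin gene, had 0.977, 2.89 and 4.75 FPKM in PHx48, against 3.28, 6.13 and 12.8 FPKM in PHx24 (-1.44, adjusted p = 0.00633); sham averaged 33.2 ± 11.7 FPKM (SD, n = 5). Igf1, the growth factor that liver sends to the body, had 39.8, 43.5 and 56.4 FPKM in PHx48, against 58.1, 61.3 and 72.5 FPKM in PHx24 (log2 fold change -0.42, SE 0.121, adjusted p = 0.0248). Its groups did not overlap, but the call was lost on leaving out PHx24 3 or PHx48 1, 3, 4 or 5 (adjusted p up to 0.0567).

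Of 24 genes that mark hepatocyte identity (plasma carriers and transcription factors) 1 rose, Cebpa, a factor of mature hepatocytes, with 112, 126 and 175 FPKM in PHx48, against 63.3, 86.7 and 114 FPKM in PHx24 (0.59, adjusted p = 0.0238). That call was lost without PHx24 2 (0.54, adjusted p = 0.0511), PHx24 5 (0.52, adjusted p = 0.055), PHx48 2 (0.50, adjusted p = 0.0627) or both muscle-bearing libraries. Alb, albumin, had 18733, 23003 and 29624 FPKM in PHx48, against 12739.7, 16136 and 21028 FPKM in PHx24 (0.51, adjusted p = 0.104), and was called higher by DESeq2 and with library or TPM totals. Afp, the fetal counterpart of albumin, had 1.2, 2.47 and 3.71 FPKM in PHx48, against 1.6, 1.84 and 2.2 FPKM in PHx24 (0.44, adjusted p = 0.122), and passed without PHx48 6 (0.56, adjusted p = 0.0203). Of 17 pericentral genes 1 rose, Rhbg, an ammonium transporter gene (0.82, adjusted p = 0.022, not passing without the muscle-bearing libraries), and 1 fell, Oat. Each is 5.88% of that list, near the 6.19% higher and 5.41% lower of all tested genes. Of 16 periportal genes Hsd17b13, a lipid droplet protein gene, rose, with 198, 239.5 and 271 FPKM in PHx48, against 76.1, 109 and 155 FPKM in PHx24 (log2 fold change 1.13, SE 0.168, adjusted p = 6.49e-05), and Pck1 fell. The periportal shares, 6.25% in either direction, were near those of all tested genes as well. The periportal median was -0.29 within the low mt-Nd3 libraries, with 1 higher and 6 lower, and 0.41 within the high ones, with 4 higher and 0 lower.

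Several lists gave 0 calls by edgeR. In the nuclear-encoded respiratory chain (30 genes) 2 were higher and 2 lower at an unadjusted p under 0.05, DESeq2 called 2 higher and limma 0. Among 13 mitochondrially encoded genes 1 was lower at that level, among 15 clock genes 2 were lower and among 10 fetal and progenitor genes 1 was higher, and neither DESeq2 nor limma called any. Of 17 interferon response genes 1 fell, the transcription factor gene Irf7 (4.21, 5.11 and 7.41 FPKM in PHx48, against 6.47, 7.96 and 9.76 FPKM in PHx24, -0.57, adjusted p = 0.0306), and lost its call on leaving out any 1 of 6 libraries or both muscle-bearing ones and with library totals alone. That 1 of 17 is 5.88%, near the 5.41% of all tested genes that fell. Of the 47 genes fixed for naming whatever their values, 46 were tested and 15 passed. The 18 that did not pass and are not named here had log2 fold changes from -2.33 to 1.12 and an adjusted p of at least 0.0753.

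Markers of other cells were compared for the same libraries. Of 12 neutrophil markers 2 were tested, S100a8 and S100a9, subunits of calprotectin, and both fell. Every PHx24 library was above 1 FPKM for both, while the PHx48 medians were below it. The PHx24 libraries were thus enough to bring both to the level tested, whatever the other groups held, and that both fell follows in part from the filter. S100a9 had 0.569, 0.986 and 2.93 FPKM in PHx48, against 1.85, 4.67 and 46.8 FPKM in PHx24 and S100a8 0.428, 0.519 and 2.7 FPKM in PHx48, against 1.42, 2.59 and 27.2 FPKM in PHx24. PHx24 2 held 46.8 FPKM of S100a9, far above the other libraries. S100a9 changed by -2.96 (adjusted p = 0.00169) with all libraries and by -1.68, adjusted p = 0.00645 without PHx24 2, S100a8 by -2.74 (adjusted p = 0.00421) and -1.49, adjusted p = 0.0276, all on the log2 scale. The summed level of the 12 markers was 2.26 to 7.84 FPKM in PHx48 and 4.80 to 87.0 FPKM in PHx24, and Ly6g, a defining marker, was at a median of 0 in both groups. Of 5 tested monocyte markers 1 fell, Chil3, a chitinase-like protein gene, with 0, 0.18 and 0.484 FPKM in PHx48, against 0.314, 0.546 and 8.41 FPKM in PHx24 (-3.07, adjusted p = 0.0263). That call was lost without PHx24 2 (-1.83, adjusted p = 0.158) or PHx48 2 (-2.85, adjusted p = 0.0517). Chil3 stayed under 1 FPKM in every PHx48 library, so it could reach the level tested only through other groups.

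Kupffer, sinusoidal endothelial and stellate cell markers (12 genes each) gave 0 calls by edgeR, with 2 lower, 1 lower, and 1 higher and 1 lower at an unadjusted p under 0.05; DESeq2 called 1 stellate gene higher and limma 1 Kupffer gene lower. Without the muscle-bearing libraries edgeR called 1 Kupffer and 1 sinusoidal endothelial marker lower and 1 B cell marker higher. Markers of hepatocytes (14 tested), skeletal muscle (11), adipocytes (8), cholangiocytes (7), the erythroid lineage (6), pancreatic acini (4), the gut (3) and B cells (2) also gave 0 calls by edgeR, and 0 by DESeq2 and limma except 1 hepatocyte marker higher by DESeq2. At an unadjusted p under 0.05, 2 hepatocyte markers, 1 erythroid and 1 pancreas marker were higher and 1 hepatocyte marker lower. No T or NK cell marker reached the level tested. The summed Kupffer markers were 94.6 to 277 FPKM in PHx48 and 150.2 to 269.9 FPKM in PHx24. Of 4 tested genes of mesothelium and gallbladder Krt23, a keratin gene, rose (0.45, 1.1 and 4.61 FPKM in PHx48, against 0.0774, 0.21 and 0.907 FPKM in PHx24, 2.63, adjusted p = 0.00386), with a change of 3.47 within the low and 0.64 within the high mt-Nd3 libraries. Krt23 stayed under 1 FPKM in every PHx24 library, so it could reach the level tested only through other groups. Of 21 matrix genes 2 fell (9.52%, against 5.41% of all tested genes). They were Fn1, fibronectin, which hepatocytes secrete into plasma (86.6, 106 and 128 FPKM in PHx48, against 123, 157 and 187 FPKM in PHx24, -0.62, adjusted p = 0.00896), and the collagen gene Col27a1 (-0.67, adjusted p = 0.00756). Neither passed with equal TPM totals. The list median was 0.34 within the low mt-Nd3 libraries, with 4 higher and 2 lower, and -0.40 within the high ones, with 0 higher and 1 lower.

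Among 22 tested growth factor ligands and receptors 1 rose and 2 fell, shares (4.55% and 9.09%) near those of all tested genes (6.19% and 5.41%). Fst, follistatin, which binds and blocks activins, had 1.03, 2.32 and 3.37 FPKM in PHx48, against 0.643, 1.12 and 1.91 FPKM in PHx24 (0.90, adjusted p = 0.017). Inhbb, the activin βB subunit gene, had 0.262, 0.424 and 1.04 FPKM in PHx48, against 0.502, 0.997 and 2.6 FPKM in PHx24 (-1.18, adjusted p = 0.0184), and Inhbe, the βE subunit gene, fell too (-0.90, adjusted p = 0.0296). Fst did not pass without PHx48 4 (0.77, adjusted p = 0.0503), Inhbb without PHx24 2 (-0.83, adjusted p = 0.0678) and Inhbe on leaving out any 1 of 5 libraries. Fst and Inhbe did not pass without the muscle-bearing libraries.

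Other genes stood among the 12 largest rises and falls without overlap. Chrna4, a nicotinic acetylcholine receptor subunit gene, showed the largest rise, with 2.65, 8.18 and 40.8 FPKM in PHx48, against 0.131, 0.343 and 0.495 FPKM in PHx24 (log2 fold change 5.42, SE 0.509, adjusted p = 1.18e-07). PHx48 5 to 7 were highest, with 40.8, 24 and 13.9 FPKM, while PHx48 1 to 4 had 2.65 to 8.18 FPKM. Sham averaged 1.19 ± 0.422 FPKM (SD, n = 5), and its 5 libraries lay above every PHx24 and below every PHx48 library. Obox8, of an oocyte-specific homeobox family, had 1.48, 2.92 and 4.62 FPKM in PHx48, against 0, 0.0519 and 0.395 FPKM in PHx24 (4.88, adjusted p = 6.06e-07). Serpinb8, an intracellular protease inhibitor gene, had 4.33, 4.56 and 6.95 FPKM in PHx48, against 0.247, 0.414 and 1.36 FPKM in PHx24 (log2 fold change 3.18, SE 0.296, adjusted p = 1.18e-07). Amn, the partner of the endocytic receptor cubilin, had 1.88, 2.81 and 7.51 FPKM in PHx48, against 0.161, 0.427 and 0.831 FPKM in PHx24 (2.88, adjusted p = 0.000392). Chrna4, Obox8 and Amn stayed under 1 FPKM in every PHx24 library, so they could reach the level tested only through other groups.

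Among the falls, Egln3, a prolyl hydroxylase gene that acts on the hypoxia-inducible factor, had 9.11, 10.6 and 14.5 FPKM in PHx48, against 25.1, 29.6 and 45.9 FPKM in PHx24 (log2 fold change -1.58, SE 0.211, adjusted p = 1.66e-05). Sham averaged 9.75 ± 1.92 FPKM (SD, n = 5), closer to PHx48 than to PHx24. Gabbr2, a subunit gene of the GABA-B receptor, had 1.8, 2.38 and 4.07 FPKM in PHx48, against 5.38, 6.02 and 7.61 FPKM in PHx24 (-1.34, adjusted p = 5.09e-06), with PHx48 6 the highest at 48 h. Peg3, an imprinted zinc finger gene, and Crybb3, a β-crystallin gene, were low at both times, with 0.348, 0.418 and 0.584 FPKM in PHx48, against 0.813, 1.02 and 1.89 FPKM in PHx24 (-1.34, adjusted p = 0.000423) and 0.0755, 0.459 and 0.686 FPKM in PHx48, against 0.706, 1.07 and 1.99 FPKM in PHx24 (-1.55, adjusted p = 0.00854). Both stayed under 1 FPKM in every PHx48 library, so they could reach the level tested only through other groups.

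The change from 24 to 48 h was also set beside the same interval under etomoxir, in libraries it does not share. Of the 766 genes that rose 723 (94.4%) were higher in PHx48_ETO than in PHx24_ETO, and of the 669 that fell 638 (95.4%) were lower, while 48.5% of all tested genes were higher there. The median log2 fold change of the genes that rose was 0.67 without and 0.64 with etomoxir, and of those that fell -0.50 and -0.51. Ccnb2 changed by 3.36 without and 5.67 with etomoxir, Lcn2 by -2.38 and -2.49, and Fasn by 1.56 and -0.03; the difference did not pass for these 3 genes. All 8 etomoxir libraries had high mt-Nd3.

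The difference between the intervals, tested in the same fit, passed for 2 of 12376 genes (0.0162%), Cyp3a11 and Cyp3a59, both drug-metabolising P450 genes with near-identical family members. At an unadjusted p under 0.05 there were 1064 genes. Cyp3a11 averaged 948 ± 209 FPKM in PHx48, against 1106 ± 170.0 FPKM in PHx24 without etomoxir (SD, n = 7 each), and 1066 ± 128 FPKM in PHx48_ETO, against 339 ± 149.8 FPKM in PHx24_ETO (SD, n = 4 each). Its change without etomoxir minus that with it was -1.89 (SE 0.309, adjusted p = 0.0121), and that of Cyp3a59 -1.77 (SE 0.276, adjusted p = 0.0116). The count depended on PHx24_ETO: without its library 1 there were 239 such genes and without its library 4 there were 0. PHx24_ETO 1 stood at 3.32 on the mean of the replication genes, against 1.46 to 2.29 in the other 3. Within the high mt-Nd3 libraries alone 3 genes passed, neither Cyp3a gene among them.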

How the data were processed

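Per the labels' protocols, TRIzol extraction of mouse liver was followed by library preparation from polyA RNA (NEBNext Ultra, a kit that does not mark strand). Tools listed in the submitters' processing notes are CASAVA 1.8, fastp, HISAT2 2.0.5, DESeq2 1.20.0 and featureCounts 1.5.0-p3, beside the builds GRCm38 and mm10. Whether counting used strand is not given in the sources used here. For every gene and library the authors deposited 1 raw count and 1 FPKM value. The deposited FPKM values were found to scale with median-of-ratios size factors rather than with library totals, so libraries are aligned on their typical gene. Total counts were 14903757 to 18446372 per library over all 27.

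Groups were taken from the sample titles. The 12376 of 54532 genes that reached 1 FPKM in 4 or more libraries were tested on the counts with edgeR 4.0.16 (TMM factors, quasi-likelihood F test, R 4.3.3) in 1 fit of 5 groups, with Benjamini-Hochberg adjustment over all tested genes and a threshold of 0.05. Standard errors are the log2 fold change divided by the root of F. The difference between the time changes without and with etomoxir was a contrast in the same fit. In counts simulated for 12376 genes under PHx48 minus PHx24, edgeR recovered 75% of 100 genes changed 2-fold. Another 100 were changed by 2 on the log2 scale and the rest not at all. That is far fewer changed genes than were called in the data, and the simulation held no mt-Nd3 sets or muscle transcripts. The recovered share therefore need not hold for the data.

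The genes and the 32 pathway and 15 marker lists were chosen with earlier results of these data known. Some genes are not reported here. Named genes are the 12 largest rises and the 12 largest falls without overlap between groups (clone and predicted-gene names left out), up to 4 genes of smallest p per list and direction, 47 set genes, and the genes called for the etomoxir difference. Genes named outside this rule are said to be so, apart from list members that did not pass and Ube2c, shown for its promoter. Overlapping genes (at least 50 shared bases, a neighbour with at least 10% of the counts) came from GENCODE M21 by bedtools 2.31.1, and promoters from RefSeq. Alternatives were DESeq2 1.42.0, limma 3.58.1 on log2 FPKM or TPM with pseudocounts of 1 and 0.1, other scalings and filters, a replicate block and left-out libraries. The mt-Nd3 split (20 cpm) was added after seeing the data.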

Additional observations from a re-analysis of the deposited data

Results flagged for a closer look

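In 27 of 284 groups of 7 libraries examined for the named genes, 1 library stood apart from the other 6 by more than Dixon's 95% critical value. For independent and normally spread values about 1 group in 20 would be flagged. These groups share their libraries and hold genes that vary together, so that rate is no yardstick for the count. Of PHx48 5, this held for Acly at 287.7 FPKM, Kif20a at 25.5 FPKM and Foxm1 at 7.99 FPKM, all above the other PHx48 libraries. PHx48 6 was high for Oat at 1179 FPKM and Gabbr2 at 4.07 FPKM, PHx48 7 for Cdkn1a at 35.7 FPKM and PHx48 2 for Cebpa at 175 FPKM. PHx48 3, which carried muscle transcripts, was high for Inhbb at 1.04 FPKM, S100a8 at 2.70 FPKM and S100a9 at 2.93 FPKM, and low for Slco1a4 at 4.55 FPKM.

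Among PHx24 libraries, PHx24 2 was high for the neutrophil markers S100a8 at 27.2 FPKM and S100a9 at 46.8 FPKM, for Chil3 at 8.41 FPKM, Inhbb at 2.60 FPKM and Pck1 at 1218 FPKM, and low for Hadh at 31.3 FPKM. PHx24 5 was high for Eno1 at 186 FPKM, Acot1 at 13.2 FPKM and Cyp2a4 at 2.12 FPKM, and low for Ube2e2 at 4.38 FPKM and Kynu at 23.6 FPKM. PHx24 6 was high for Psrc1 at 2.09 FPKM and Obox8 at 0.395 FPKM, PHx24 1 for Peg3 at 1.89 FPKM and Hist1h3d at 0.436 FPKM, and PHx24 7 for Hist1h3g at 0.56 FPKM.

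The change from 24 to 48 h differed between livers without and with etomoxir for Cyp3a11, by -1.89 on the log2 scale (adjusted p = 0.0121), and for Cyp3a59, by -1.77 (adjusted p = 0.0116), both by edgeR.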

How the results depend on the processing

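The 1435 genes called for PHx48 against PHx24 became 1134 to 1949 when 1 library was left out, with 615 to 1026 higher and 519 to 923 lower. By at least 2-fold there were then 202 to 274 higher and 76 to 97 lower. DESeq2 called 972 higher and 808 lower. A fit of the 14 libraries alone called 1067 higher and 886 lower. Without the filter on low values, 559 were higher and 457 lower of 30492 genes. Library totals gave 1453 higher and 320 lower, and limma on log2(TPM + 1), which changes test and scaling, 1691 and 264, with 44 lower by at least 2-fold. In limma on log2(FPKM + 1), 828 were higher and 631 lower, and 140 were higher and 50 lower by at least 2-fold, where the pseudocount shrinks the fold of low genes. The 6 libraries with high mt-Nd3 alone gave 550, of which 367 were higher and 183 lower, from fewer libraries; this alternative was chosen after seeing the data, as were the 8 low libraries and the class as a term (896 higher, 756 lower). The genes called for the etomoxir difference numbered 43 by DESeq2, 1 by limma on log2(TPM + 1) and 0 to 239 on leaving out 1 library. The cause of these shifts was not tested unless stated.

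Replicate numbers did not pair the libraries: the deviations of same-numbered PHx48 and PHx24 libraries correlated at -0.20 to 0.20, and 1 of the 7 PHx48 libraries correlated best with its own number. With the number as a replicate block, 1445 genes were called, 793 higher and 652 lower, and the etomoxir difference gave 2.

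Of the 58 named genes that rose and 66 that fell, DESeq2 and median-of-ratios factors lost 0, library totals 0 and 12, limma on log2(TPM + 1) 0 and 20 and on log2(FPKM + 1) 1 and 2, no filter 8 and 11, and leaving out both muscle-bearing libraries 8 and 12. Within the 8 low mt-Nd3 libraries 9 and 16 were lost, and within the 6 high ones 17 and 41, among them Saa1, Hp, Ccne1, Pck1 and Igf1. The values of 4 genes changed sign, none of them called: Ccnd1 at 0.10 and Ass1 at -0.13 within the 8 low mt-Nd3 libraries, and Cyp3a11 at 0.078 and Asl at 0.41 within the high ones. Without PHx24 2, S100a8 changed by -1.49, adjusted p = 0.0276 and S100a9 by -1.68, adjusted p = 0.00645. Genes under 1 FPKM rest on few reads, and paralogs, P450 and histone genes on shared ones.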

Other observations

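The 3 smallest p-values of the comparison belonged to genes outside every list, Ccl9, Gpx7 and Gm2a. The 5 named here were chosen after their values were seen. Ccl9, a chemokine gene, had 103, 129 and 143 FPKM in PHx48, against 18.9, 24.9 and 34 FPKM in PHx24 (log2 fold change 2.24, SE 0.145, adjusted p = 2.15e-10 by edgeR). Each PHx48 library was above each PHx24 library. Gpx7, a peroxidase gene of the endoplasmic reticulum, had 14, 18.6 and 23.6 FPKM in PHx48, against 2.21, 2.66 and 4.4 FPKM in PHx24 (2.67, adjusted p = 2.69e-09), and Gm2a, the activator of ganglioside breakdown in lysosomes, 43.7, 52.7 and 58.7 FPKM in PHx48, against 13.1, 16.4 and 17.8 FPKM in PHx24 (1.72, adjusted p = 2.69e-09). Among falls, Gde1, a glycerophosphodiester phosphodiesterase gene, had 16.9, 18.7 and 24.1 FPKM in PHx48, against 30.3, 32 and 41.2 FPKM in PHx24 (-0.77, adjusted p = 5.24e-07), and Ube2e2, a ubiquitin-conjugating enzyme gene, 2.52, 3.14 and 3.45 FPKM in PHx48, against 4.38, 5.41 and 5.47 FPKM in PHx24 (-0.77, adjusted p = 5.24e-07). None of the 5 overlapped between the groups. Within the low and the high mt-Nd3 libraries Ccl9 changed by 2.44 and 2.02, and Gpx7 by 2.92 and 2.40.

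The mt-Nd3 split was described over all 27 libraries. With the study groups in the same fit, 773 of 12376 genes differed between its classes, 353 higher and 420 lower in the libraries with high mt-Nd3. Among the 1435 genes that changed with time 75 did so, no larger a share than among all tested genes.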
